A study of Mus musculus with 12 samples.

Results

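The genes *Fap*, *Thy1*, *Pdpn*, *Cd34*, *Dpp4*, *Pi16* and *Cdh11*, whose products are used on the cell surface to divide fibroblasts into subsets, were described in single cells of the mouse joint. They were taken by symbol and are 7 of the 27998 genes in the count tables. The question was in which joint cell types each was detected, which of them were detected in the same fibroblasts, and how their levels differed between libraries.

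The libraries came from serum transfer-induced arthritis, in which serum of K/BxN mice gives wild-type C57BL/6 mice a joint inflammation that resolves by itself. There were 12 libraries, 3 for each of 4 labels. Rest was taken on day 0 without serum. The other labels followed 100 µl of serum into a vein: peak libraries came from days 7 to 9, those of the resolving joint from day 15 and those of the resolved joint from day 22. All animals were males of 8 to 10 weeks, and each library pooled the joints of 3 animals. Live CD45-negative cells were sorted, which removes most blood cells, and mRNA was counted from the 3′ end as unique molecular identifiers (UMIs).

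The joint is enclosed by the synovium, whose fibroblasts form a lining layer facing the joint space and a sublining layer around vessels beneath it. FAP together with THY1 is the usual pair of markers for these layers: both layers can carry FAP, and THY1 is used for the sublining. FAP and DPP4 are related serine proteases that cut after proline. THY1 is held to the membrane by a lipid anchor, podoplanin (*Pdpn*) and CD34 are mucin-like glycoproteins, PI16 belongs to the family of cysteine-rich secretory proteins, and cadherin-11 (*Cdh11*) joins mesenchymal cells to each other.

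On GRCm38, with GENCODE M21 gene models, *Fap* (ENSMUSG00000000392) lies at chr2:62500943-62574075 and *Dpp4* (ENSMUSG00000035000) at chr2:62330073-62412231, both on the minus strand. They are separated by 88711 bases that hold 3 other gene models, among them *Gcg*. *Thy1* (ENSMUSG00000032011) lies at chr9:44043384-44048579 on the plus strand, *Pdpn* (ENSMUSG00000028583) at chr4:143267431-143299564 on the minus strand and *Cd34* (ENSMUSG00000016494) at chr1:194938819-194961279 on the plus strand. *Pi16* (ENSMUSG00000024011) lies at chr17:29317680-29330593 on the plus strand and *Cdh11* (ENSMUSG00000031673) at chr8:102632095-102785642 on the minus strand. All 7 code for proteins. The models *Gm16897*, *Gm13561* and *AC162182.1* overlap *Cd34*, *Dpp4* and *Pi16* on the opposite strand, and the 4 models that overlap *Cdh11* on its own strand had no row in the count tables.

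*Cd34*, *Dpp4* and *Pi16* formed the 3 pairs with the highest odds of detection in the same fibroblast below, and their promoters are shown for that reason. They are RefSeq sequences on GRCm38.p6, from 250 bases before to 50 bases after the annotated start, 5′ to 3′ along the gene: *Cd34* at chr1:194938571-194938870 on the plus strand, *Dpp4* at chr2:62412182-62412481 on the minus strand and *Pi16* at chr17:29318632-29318931 on the plus strand. RefSeq promoters were at hand for 4 of the 7 genes, these and *Pdpn*. The *Pi16* window lies inside the GENCODE span of the gene, downstream of its start at 29317680. It therefore belongs to another annotated start, and the sequence before the GENCODE start of *Pi16* is not shown. Capitals mark 3 motifs searched on both strands: the TATA box, spelled TATAAA, which factors of the basal machinery bind near many start sites; the CCAAT box, spelled as in its name and found further upstream of many genes; and the GC box, spelled GGGCGG and bound by factors of the Sp family.
Cd34: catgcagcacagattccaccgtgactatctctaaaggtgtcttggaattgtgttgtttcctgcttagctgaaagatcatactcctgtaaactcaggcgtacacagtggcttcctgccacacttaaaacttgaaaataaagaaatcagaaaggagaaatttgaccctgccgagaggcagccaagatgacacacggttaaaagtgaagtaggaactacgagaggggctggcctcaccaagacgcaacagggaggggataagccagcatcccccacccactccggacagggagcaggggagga
Dpp4: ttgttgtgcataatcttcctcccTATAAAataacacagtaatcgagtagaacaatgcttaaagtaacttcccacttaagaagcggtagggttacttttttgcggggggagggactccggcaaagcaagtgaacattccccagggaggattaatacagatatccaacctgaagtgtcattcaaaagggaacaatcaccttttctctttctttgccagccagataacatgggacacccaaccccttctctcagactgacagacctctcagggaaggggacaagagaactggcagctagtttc
Pi16: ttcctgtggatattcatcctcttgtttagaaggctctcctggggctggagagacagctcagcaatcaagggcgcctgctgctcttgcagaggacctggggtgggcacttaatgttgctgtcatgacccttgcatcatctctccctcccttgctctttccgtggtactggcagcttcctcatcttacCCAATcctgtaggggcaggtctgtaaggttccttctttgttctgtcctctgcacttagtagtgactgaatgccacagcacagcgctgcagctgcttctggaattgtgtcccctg

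The 3 windows shared none of these motifs. *Dpp4* held the string TATAAA 1 time, close to the upstream end of its window and far from the annotated start. *Pi16* held CCAAT 1 time and *Cd34* held none of the 3 motifs. Whether any of these strings is bound was not tested. Of all 32851 RefSeq promoters of this length, 13.6% held TATAAA, 37.4% CCAAT and 35.7% GGGCGG, at any position. The window of *Pdpn* held the GC box 2 times. The GC content was 50% in *Cd34*, 45.3% in *Dpp4* and 53.3% in *Pi16*, and its median over all promoters was 52.7%.

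Of 21042 deposited cells, 20060 passed the limits on genes and UMIs and fell into 25 clusters. None of the 7 genes entered the clustering or the markers that named the clusters. By those markers 10590 cells in 8 clusters were fibroblast-like (553 to 1375 per library), and 2387 cells in 4 clusters stayed unnamed. The blood cell marker *Ptprc* had a UMI in 59 of the 20060 cells, 0.294%. A library held between 7468914 and 16566202 UMIs in kept cells, and 0 barcodes were shared in 66 pairs of libraries. The median was 5358 UMIs per deposited cell in every library. The number at the end of the barcodes orders the libraries from 1 to 12. Suffixes 1 to 3 belong to the first rest, peak and resolving libraries, 4 to 6 to resolved 1, rest 2 and peak 2, 7 to 9 to resolving 2, resolved 2 and rest 3, and 10 to 12 to the last 3 libraries of peak, resolving and resolved. In fibroblast-like cells, the library with the most similar levels over 7206 genes lay in the same run of 3 suffixes for 12 of 12 libraries and had the same label for 0 of 12. What a run stands for is not given in the sources used here. The labels are used as given, and whether each library carries the label of its own sample was not tested, which bears on every comparison of labels.

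Levels are given as CPM, the UMIs of a gene per 1000000 UMIs of the cells summed, as mean ± SD over libraries. CPM is not corrected for gene length, which 3′ counting does not need, but levels are compared here only within a gene. *Fap* was at 55.1 CPM in the lowest library, 77.0 in the median and 182 in the highest. *Thy1* ranged from 97.2 to 246 CPM with a median of 170, and *Pdpn* from 129 to 317 with a median of 182. *Cd34* ranged from 188 to 918 CPM (median 543), *Pi16* from 346 to 1584 (median 834) and *Dpp4* from 7.56 to 51.9 (median 22.1). *Cdh11* ranged from 15.2 to 89.9 CPM, with a median of 55.0.

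The share of fibroblast-like cells with at least 1 UMI was 68.4% for *Cd34*, 56.2% for *Pdpn*, 43.1% for *Thy1*, 42.3% for *Pi16*, 32.6% for *Fap*, 20.8% for *Cdh11* and 9.87% for *Dpp4*. Vascular endothelial-like cells, taken to carry little but *Cd34* and some *Thy1*, served as a reference for low detection. Free RNA, cells caught together and true expression in these cells were not told apart. Their shares were 2.55% for *Fap*, 2.38% for *Pdpn*, 6.96% for *Pi16*, 0.848% for *Cdh11* and 0.735% for *Dpp4*, at a median of 3176.5 UMIs per cell against 5475.5 in fibroblast-like cells. All of these lay far below the fibroblast-like shares. *Thy1* had a UMI in 5.88% of vascular endothelial-like cells and *Cd34* in 75.3%. For *Cd34* the share in osteoblast-like cells, 5.12% at a median of 5366 UMIs, served as that reference. A fibroblast-like cell most often had 2 or 3 of the 7 genes detected (24.6% and 23.9% of cells), 518 cells had none and 10 cells had all.

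The genes differed in how far they marked fibroblasts among the cells of the joint. Fibroblast-like cells held 94.0% of all *Pi16* UMIs and 88.1% of all *Dpp4* UMIs, but 38.5% of *Fap* and 43.1% of *Cdh11* UMIs. They held 67019141 of the 126994745 UMIs of all kept cells. Unnamed clusters of 1362 and 865 cells, each with all 7 fibroblast markers detected, are not counted in these shares. Against fibroblast-like cells, the 10 other cell types gave 70 tests of the 7 genes, of which 54 were lower and 6 higher at an adjusted p under 0.05 and a log2 difference over 0.5 (edgeR, quasi-likelihood, p-values adjusted over all genes by Benjamini and Hochberg). Over all genes and types, 34.6% of tests were called, 19.8% lower and 14.8% higher. By type, the share of all genes called was 52.9% in vascular endothelial-like, 47% in chondrocyte-like, 39.5% in perivascular-like, 39.1% in lymphatic endothelial-like and 38.8% in muscle-like cells. It was 32% in immune-like, 29.6% in osteoblast-like, 27.9% in proliferating, 19.9% in Schwann-like and 19.3% in tenocyte-like cells. Erythroid-like cells were too few to be tested.

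*Fap* was highest in osteoblast-like cells, the cells that lay down bone. There it ranged from 322 to 819 CPM (median 583) and did not overlap with the fibroblast-like sums of any library. The mean was 576 ± 149 CPM in osteoblast-like against 89.1 ± 37.5 in fibroblast-like cells (n = 12 libraries), a log2 difference of 2.69 (SE 0.17, adjusted p = 1.9e-26), higher in 12 of 12 libraries. A UMI of *Fap* was found in 83.2% of osteoblast-like cells. Chondrocyte-like cells, the cartilage cells, followed at 76.4 to 336 CPM (median 243, n = 8), a log2 difference of 1.54 (SE 0.20), higher in 7 of 8 libraries. Osteoblast-like cells exceeded chondrocyte-like cells by 404 ± 189 CPM in 8 of 8 shared libraries. Fibroblast-like and tenocyte-like cells, the next in order, differed by 14.7 ± 40.7 CPM and could not be told apart (log2 difference of -0.05, SE 0.18). Below them, *Fap* was at 8.55 ± 4.54 CPM in vascular endothelial-like cells and had no UMI in 112 immune-like cells, which allows a share of cells with a UMI of up to 2.68% (3 of 112, counting error only) and puts its level at least 17.0-fold lower than in fibroblast-like cells.

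*Cdh11* followed *Fap* into the osteoblast-like cells. There it ranged from 277 to 380 CPM (median 340), above every fibroblast-like sum, with a mean of 330 ± 33.5 against 53.6 ± 28.2 CPM, a log2 difference of 2.74 (SE 0.16, adjusted p = 8.6e-29), higher in 12 of 12 libraries. Both genes moved apart in chondrocyte-like cells, where *Cdh11* was at 12 ± 16.4 CPM, a log2 difference of -2.49 (SE 0.37). In the Schwann-like cells of 3 libraries *Cdh11* was at 26.3, 65.1 and 70.3 CPM, and in tenocyte-like cells at 42.5 ± 12.5 CPM. Neither was called against fibroblast-like cells (adjusted p = 0.96 and 0.73).

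*Thy1* was highest outside the fibroblasts as well, in cells of vessels. Lymphatic endothelial-like cells had 464 to 1023 CPM (median 715, n = 10), a log2 difference of 1.64 (SE 0.22) from fibroblast-like cells, higher in 10 of 10 libraries. Perivascular-like cells, the contractile cells around vessels, had 148 to 1354 CPM (median 508), a log2 difference of 1.61 (SE 0.20), higher in 11 of 12. The spread between libraries was wide there, and the lymphatic and perivascular levels differed by 110 ± 503 CPM, within that spread. Tenocyte-like cells at 181 ± 72.7 CPM and fibroblast-like cells at 170 ± 39.7 did not differ (log2 difference of 0.10, SE 0.19). *Thy1* was lower in osteoblast-like cells (59.5 ± 16.7 CPM, log2 difference of -1.55, SE 0.21), vascular endothelial-like cells (40.7 ± 26.3) and chondrocyte-like cells (8.79 ± 6.99). In proliferating cells it stood at the edge of the call, with a log2 difference of -0.59 (SE 0.25, adjusted p = 0.05), lower in 3 and higher in 3 of 6 libraries, and was not called after leaving out any of 8 libraries in turn (rest 1, peak 1, 2 or 3, resolving 1 or 2, resolved 1 or 3).

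*Pdpn*, known from lymphatic vessels and from fibroblasts, was highest in muscle-like and lymphatic endothelial-like cells. The muscle-like cluster was led by *Myod1* and *Pax7*, genes of muscle stem cells, and had 234 to 505 CPM of *Pdpn* (median 399.5, n = 8), a log2 difference of 0.95 (SE 0.21), higher in 8 of 8 libraries. Lymphatic endothelial-like cells had 179 to 601 CPM (median 339, n = 10) and were above fibroblast-like cells in 10 of 10 libraries, but the TMM-scaled log2 difference was 0.25 (SE 0.20, adjusted p = 0.34). It was called at 0.61 with RLE size factors, 0.80 with total counts and 0.63 in DESeq2. Between fibroblast-like and lymphatic endothelial-like cells these scalings moved the median of all genes by 0.33, 0.53 and 0.43 on the log2 scale. *Pdpn* was lower in tenocyte-like (121 ± 36.6 CPM) and osteoblast-like cells (67.2 ± 21.3), and lowest in perivascular-like (8.54 ± 11.8) and vascular endothelial-like cells (7.30 ± 5.17).

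*Cd34*, a classical marker of vessels and blood progenitors, was shared by vascular endothelial-like and fibroblast-like cells. Vascular endothelial-like cells had 469 to 904 CPM (median 673), overlapping with the fibroblast-like range, and the log2 difference was 0.20 (SE 0.19, adjusted p = 0.43), higher in 6 and lower in 6 of 12 libraries. It was not called in that type, and it was lower in the other 9. Tenocyte-like cells had 197 ± 66.9 CPM and proliferating cells 168 ± 36.5, whereas lymphatic endothelial-like cells had 51.3 ± 41.4 and perivascular-like cells 15.0 ± 13.9.

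*Pi16* and *Dpp4* were called higher than in fibroblast-like cells in none of the types. *Pi16* was at 837 ± 370 CPM in fibroblast-like cells and at most at 80.2 ± 46.2 in any other tested type, and was lower in 10 of 10 types. *Dpp4* was at 25 ± 16.1 CPM in fibroblast-like and at 14.3 ± 5.82 in tenocyte-like cells, where it was higher in 6 and lower in 6 of 12 libraries although the fitted log2 difference was -0.93 (SE 0.26). This call for *Dpp4*, tenocyte against fibroblasts, was lost and turned to 0.17 (adjusted p = 0.62) with cells of at most 10% mitochondrial UMIs, and was lost at -0.59 (adjusted p = 0.294) in DESeq2. Immune-like cells held *Dpp4* at 0, 8.94 and 122 CPM in 3 libraries, a spread wider than the difference from fibroblast-like cells (adjusted p = 0.40). No *Dpp4* UMI was found in 186 lymphatic endothelial-like, 266 muscle-like and 108 Schwann-like cells, which puts it at least 6.11-fold, 5.79-fold and 2.90-fold lower there. *Fap* and *Dpp4*, neighbours on chromosome 2, thus had different types at the top of their order: osteoblast-like cells held 5051 UMIs of *Fap* and 4 of *Dpp4*.

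**Figure D1:**
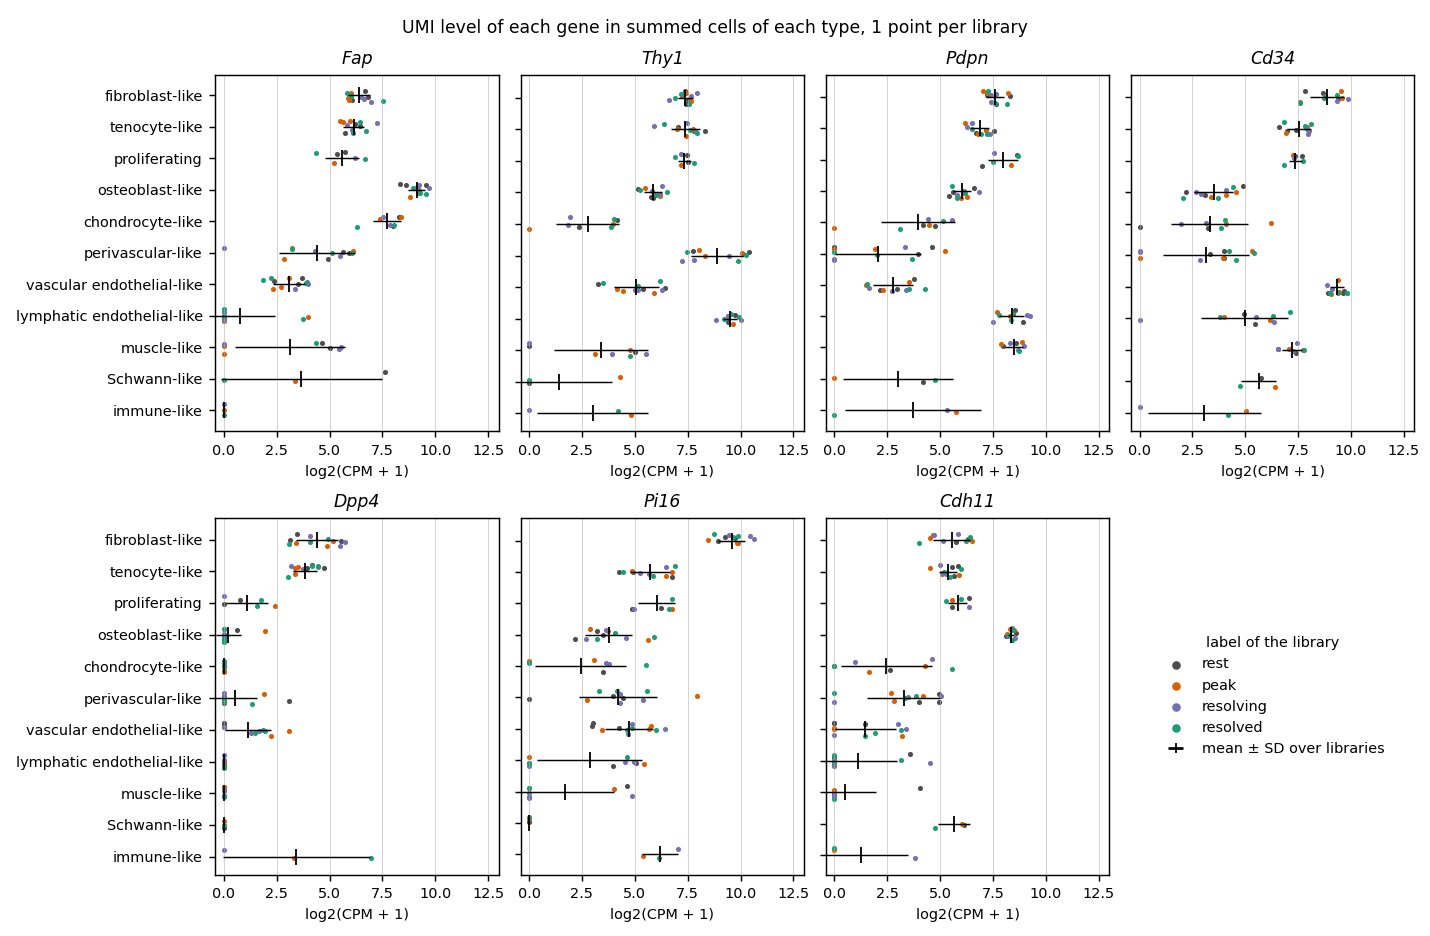
Level of each gene by cell type as log2(CPM + 1), where each point is the sum of the cells of 1 library and type. *Fap* and *Cdh11* lie highest in osteoblast-like cells (means of 576 and 330 CPM), *Thy1* in lymphatic endothelial-like and perivascular-like cells, and *Pi16* is highest in fibroblast-like cells at 837 CPM.

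Within the 8 fibroblast-like clusters, each called by its leading genes, *Cd34*, *Pi16* and *Dpp4* were highest in the same cluster and *Cdh11* in another. The cluster with *Stmn4* and *Efhd1* was sublining-like by its markers and had the most *Cd34* (1211 ± 246 CPM), *Pi16* (3641 ± 1391) and *Dpp4* (113 ± 38.6). The cluster with *Inmt* and *Serpina3c* came next for *Pi16* (1863 ± 616 CPM) and had *Cd34* at 1042 ± 201 and *Dpp4* at 41.9 ± 17.7. The cluster with *Ccl11* and *Hsd11b1* had *Cd34* at 994 ± 254, *Dpp4* at 47.2 ± 21.8 and *Pi16* at 662 ± 437 CPM. At the other end, the cluster with *Nppc* and *Col8a1* had *Cd34* at 113 ± 50.1, *Pi16* at 35.5 ± 26.3 and *Dpp4* at 1.23 ± 2.20 CPM, and the most *Cdh11* of the 8, at 202 ± 54.3. That cluster also had 4 tenocyte markers raised, against 2 fibroblast markers, while a cluster of 1362 cells with 5 tenocyte markers against 1 fibroblast marker stayed unnamed. *Cdh11* was at 107 ± 16.9 CPM in the cluster with *Cxcl5* and *Saa3*, which reached 10 cells in 6 libraries, those with suffixes 4 to 9 (7 libraries for the cluster with *Col14a1* and *Col5a3*), and at 11.1 ± 13.9 in the *Stmn4* and *Efhd1* cluster.

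*Fap* and *Pdpn* varied less between these clusters. *Fap* lay between 57.9 ± 21.1 CPM in the cluster with *Ifi205* and *C4b* and 172 ± 55.3 in the *Nppc* and *Col8a1* cluster, and *Pdpn* between 155 ± 26.1 and 274 ± 67.0. *Thy1* was at 8.64 ± 7.02 CPM in the cluster with *Prg4* and *F13a1* and at 139 ± 64.1 or more in the other 7. The *Prg4* and *F13a1* cluster was lining-like by its markers, *Prg4* being the gene of lubricin, the lubricant of the joint surface.

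**Figure D2:**
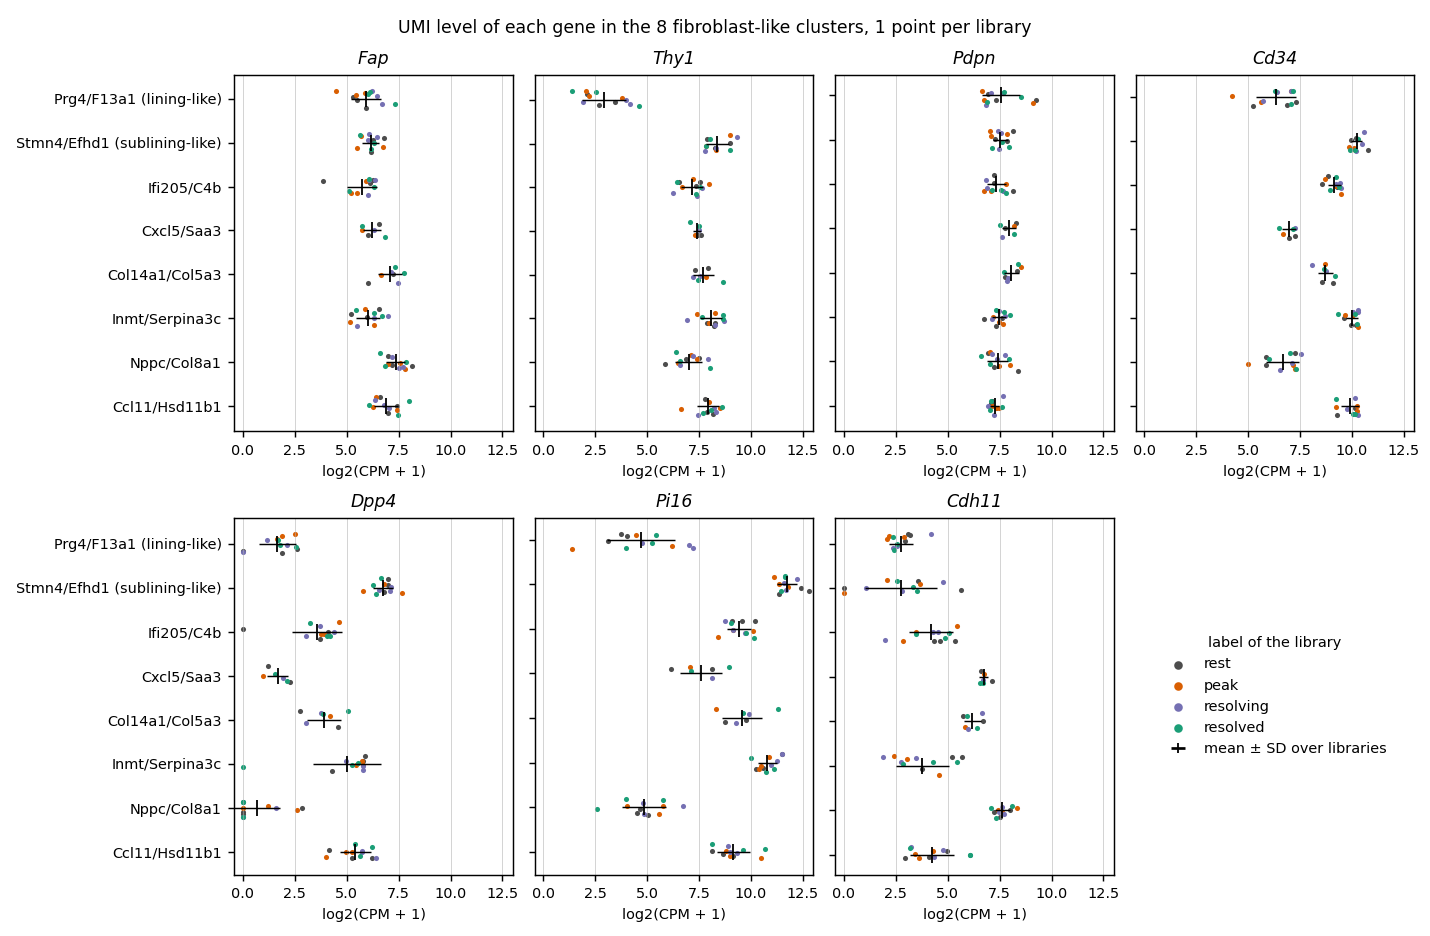
Level of each gene in the 8 fibroblast-like clusters as log2(CPM + 1), where each point is the sum of the cells of 1 library. *Thy1* is lowest in the lining-like cluster with *Prg4* and *F13a1* (8.64 CPM), *Cd34*, *Dpp4* and *Pi16* are highest in the sublining-like cluster with *Stmn4* and *Efhd1*, and *Cdh11* is highest in the cluster with *Nppc* and *Col8a1*.

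The lining-like cells (1133) were compared with all other fibroblast-like cells of the same libraries, to see which of the genes parted the layers. Of the 7 genes, 5 were lower and none higher, where 29% of all genes were called, 16.4% lower and 12.7% higher. *Thy1* ranged from 1.65 to 23.2 CPM in lining-like cells, with a median of 5.17, and lay below the other fibroblast-like cells in 12 of 12 libraries. The log2 difference was -4.66 (SE 0.20, adjusted p = 2.0e-13). At equal depth of 2000 UMIs per cell, 1.53% of lining-like cells had a *Thy1* UMI, between the 0.641% of chondrocyte-like and the 2.94% of vascular endothelial-like cells.

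*Pi16* was at 43.7 ± 47.9 CPM in lining-like against 1011 ± 538 in other fibroblast-like cells (log2 difference of -4.83, SE 0.32), and *Dpp4* at 2.64 ± 1.72 against 29.9 ± 20.6 (-3.58, SE 0.22). *Cd34* was at 94.2 ± 47.8 against 613 ± 308 CPM (-2.67, SE 0.37). *Cdh11*, the cadherin known for adhesion between lining cells, was at 6.31 ± 3.85 against 60.6 ± 29.9 CPM in this comparison (-3.19, SE 0.16), lower in 12 of 12 libraries. *Fap* was at 68.5 ± 36.2 against 91.7 ± 39.5 CPM, a log2 difference of -0.44 (SE 0.13, adjusted p = 0.0084) that missed the limit of 0.5. *Pdpn* was at 233 ± 178 against 202 ± 54.0 CPM and did not differ beyond its spread (-0.08, SE 0.14). Of the lining-like cells 28.1% had a *Fap* UMI and 65.1% a *Pdpn* UMI, at a median of 7494 UMIs per cell.

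The sublining-like cells (1302), all from the *Stmn4* and *Efhd1* cluster, differed from the other fibroblast-like cells in the opposite direction for *Pi16*, *Dpp4*, *Cd34* and *Thy1*. That cluster had 5 sublining markers raised. Among the other cells, the *Col14a1* and *Col5a3* cluster, the *Inmt* and *Serpina3c* cluster and the lining-like cluster had 2 each. The contrast is therefore of a single cluster and not of the whole sublining layer. Of the 7 genes, 5 were called, 4 higher and 1 lower, where 14.5% of all genes were called, 5.83% higher and 8.66% lower. *Pi16* ranged from 2223 to 6961 CPM (median 3193) and its mean of 3641 ± 1391 stood against 513 ± 172, a log2 difference of 2.74 (SE 0.15). *Dpp4* was at 113 ± 38.6 against 14.3 ± 7.61 CPM (2.68, SE 0.19), *Cd34* at 1211 ± 246 against 434 ± 192 (1.51, SE 0.13) and *Thy1* at 357 ± 145 against 150 ± 45.6 (1.19, SE 0.13). Each of these 4 was higher in 12 of 12 libraries. *Cdh11* was lower here too, at 11.1 ± 13.9 against 57.6 ± 26.8 CPM (-2.26, SE 0.21). *Fap* (-0.47, SE 0.11, adjusted p = 0.0016) and *Pdpn* (-0.09, SE 0.09) were not called, and *Fap* lay so close to the limit of 0.5 that it passed it when any of 4 libraries was left out: rest 3, peak 1, peak 2 or resolved 3.

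*Fap* and *Thy1* together divided the fibroblast-like cells into 4 groups. Both had a UMI in 1677 cells (15.8%), *Fap* alone in 1775 (16.8%), *Thy1* alone in 2885 (27.2%) and neither in 4253 (40.2%). Over libraries the double-positive share ranged from 8.84% to 20.4% and the share with *Fap* alone from 9.99% to 28.7%. These groups differ in depth, with a median of 7129 UMIs in double-positive and 4488 in double-negative cells. Of the cells with *Fap* alone, 16.9% were in the lining-like cluster, as were 18.3% of the double-negative cells, whereas 1.07% of the double-positive cells and 1.21% of those with *Thy1* alone were. The cluster with *Col14a1* and *Col5a3* held 24.3% of the cells with *Fap* alone and 21.3% of the double-positive cells, against 9.57% of those with *Thy1* alone and 8.86% of the double-negative cells.

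In *Fap*-positive fibroblast-like cells, the *Thy1*-positive were compared with the *Thy1*-negative of the same library. Of 7086 genes, 246 were called (3.47%), 122 higher (1.72%) and 124 lower (1.75%), and of the 5 other surface markers tested 3 were higher. *Dpp4* was at 40.9 ± 29.7 CPM with *Thy1* and 10.1 ± 7.17 without (log2 difference of 1.87, SE 0.23), higher in 11 of 12 libraries. *Pi16* was at 1141 ± 726 against 347 ± 157 (1.58, SE 0.21), higher in 11 of 12, and *Cd34* at 640 ± 327 against 314 ± 141 (0.94, SE 0.09), higher in 12 of 12. *Pdpn* was higher in 12 of 12 libraries by a log2 difference of 0.25 (SE 0.06) that was under the limit, and *Cdh11* was at 75.3 ± 33.6 against 69.4 ± 34.1 CPM (0.09, SE 0.10).

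The 10 genes that rose most with *Thy1*, with that direction in every library, were *Efhd1*, *Gas7*, *Fbn1*, *Mfap5*, *Rab32*, *Apbb1ip*, *Duoxa1*, *Cd34*, *Vcan* and *Galnt16*, at log2 differences of 0.91 to 1.48. *Fbn1*, the gene of fibrillin-1, was at 385 ± 130 against 168 ± 90.0 CPM (1.24, SE 0.10), and *Mfap5*, a protein of the same microfibrils, at 1428 ± 336 against 668 ± 130 (1.06, SE 0.08). *Vcan*, the proteoglycan versican, rose by 0.92 (SE 0.12). The 10 that fell most were *Tspan15*, *F13a1*, *Col22a1*, *Clic5*, *Prg4*, *Cystm1*, *Cpe*, *Pla1a*, *Hbegf* and *Rgcc*, at log2 differences of -4.48 to -1.97. *Prg4* was at 2380 ± 2289 CPM with and 21212 ± 17823 without *Thy1*, a log2 difference of -3.16 (SE 0.22), and *Hbegf*, a growth factor of the EGF family, at 115 ± 87.1 against 458 ± 231.

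**Figure D3:**
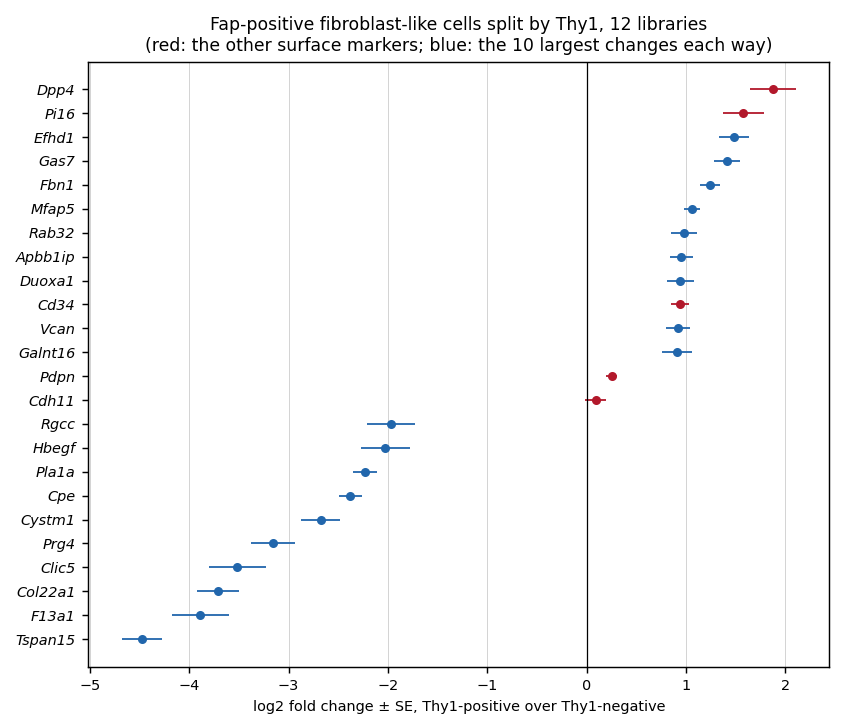
Log2 fold change ± SE in *Fap*-positive fibroblast-like cells, *Thy1*-positive over *Thy1*-negative, for the other 5 surface markers (red) and the 10 genes with the largest change each way among those that moved the same way in every library (blue), over 12 libraries. *Dpp4* (1.87) and *Pi16* (1.58) lie furthest to the right, *Pdpn* and *Cdh11* near 0, and *Tspan15* furthest to the left at -4.48.

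Lists of related genes were read against a median of 0.01 over all genes of this split. Of 9 lining genes tested 6 were lower, with a median of -2.03, and of 22 other fibroblast subset genes 7 were higher and none lower, among them *Cd248* (0.87, SE 0.08), *Clec3b* (0.82, SE 0.10) and *Acta2* (0.77, SE 0.14). Some of these genes also served as markers of the lining-like and sublining-like clusters. Of 15 inflammatory ligands 2 were higher: *Il33*, an alarmin, at 66.4 ± 34.3 against 34.0 ± 20.4 CPM (0.96, SE 0.19), and the chemokine *Ccl8* at 54.1 ± 43.2 against 26.7 ± 25.1 (0.92, SE 0.24). Of 19 collagens and matrix genes *Fbn1* and *Postn* (0.83, SE 0.13) were higher and *Fn1*, the gene of fibronectin, lower (-0.77, SE 0.11). Of 13 matrix-degrading and osteoclast-related genes *Mmp23* was higher (0.57, SE 0.10) and 12 were not called, and of 5 cadherins and catenins *Cdh13* was lower (-0.56, SE 0.14). None of 5 prolyl peptidase relatives of *Fap* and *Dpp4*, 7 sialomucin relatives of *Cd34* and partners of podoplanin, and 20 genes of dissociation and immediate early response was called. Of the markers of other joint cells, 3 of 6 tested for osteoblasts, 1 of 2 for perivascular cells and 1 of 1 for Schwann cells were lower with *Thy1*, and their part in these differences was not tested.

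The groups differed in the clusters they came from. When *Thy1*-positive and *Thy1*-negative cells were matched within clusters, which leaves fewer cells, 27 genes were called in place of 246. Of the 246 genes 199 could be tested there and 21 were called in both. *Dpp4* (log2 difference of 1.12) and *Pi16* (0.97) were still called in this matching, and *Cd34* (0.43) was not. The other differences were smaller too: *Prg4* was at -0.90, *F13a1* at -1.32, *Cpe* at -0.94, *Pla1a* at -0.64, *Rgcc* at -0.50 and *Hbegf* at -0.49, and *Efhd1* at 0.82, *Fbn1* at 0.76, *Mfap5* at 0.47 and *Vcan* at 0.41. Matched on UMIs per cell, 219 genes were called, 175 of them shared.

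The same comparison was made for each of the 7 genes in turn over all fibroblast-like cells, asking which of the other 6 went with it. Of 42 tests 20 were called, with at least 1 call for every gene but *Pdpn*. *Cd34*-positive cells had more *Pi16* (1163 ± 532 against 92.3 ± 50.6 CPM, log2 difference of 3.60, SE 0.34), more *Dpp4* (34.2 ± 21.4 against 2.88 ± 1.29, 3.38, SE 0.18) and more *Thy1* (208 ± 42.0 against 82.5 ± 33.9, 1.40, SE 0.14), each in 12 of 12 libraries. They had less *Cdh11* (41.7 ± 28.7 against 82.3 ± 26.1 CPM, -1.10, SE 0.21). The 4 calls for *Cd34* stood beside 10.4% of all genes called in that split.

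*Dpp4*-positive cells had more *Pi16* (2.15, SE 0.14), *Thy1* (1.37, SE 0.08) and *Cd34* (1.33, SE 0.10) and less *Cdh11* (-1.72, SE 0.20), with 10.3% of all genes called. *Pi16*-positive cells had more *Dpp4* (2.16, SE 0.14), *Cd34* (1.25, SE 0.07) and *Thy1* (0.90, SE 0.08) and less *Cdh11* (-0.60, SE 0.16), with 7.1% of all genes called. *Thy1*-positive cells had more *Dpp4* (1.49, SE 0.15), *Pi16* (1.19, SE 0.12) and *Cd34* (0.72, SE 0.09), with 4.65% of all genes called. All 4 genes of this group were thus higher in cells positive for any other of them. *Cdh11*-positive cells stood apart, with less *Dpp4* (-2.15, SE 0.22), *Pi16* (-1.99, SE 0.24) and *Cd34* (-1.25, SE 0.10) and more *Fap* (0.59, SE 0.10), where 11.6% of all genes were called. In *Fap*-positive cells *Cdh11* alone was called, at 71.6 ± 31.8 against 42.5 ± 24.8 CPM (0.77, SE 0.08), higher in 12 of 12 libraries, beside 2.45% of all genes. In *Pdpn*-positive cells no other member was called, beside 2.6% of all genes.

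Matched within clusters, which leaves fewer cells, 10 of 40 tests were called. The share of all genes called in these matched fits is not given here. *Pi16* was still higher in *Cd34*-positive (1.94), *Dpp4*-positive (1.02) and *Thy1*-positive cells (0.61), *Dpp4* in *Pi16*-positive (1.14) and *Thy1*-positive cells (0.79), *Thy1* in *Cd34*-positive (0.65) and *Dpp4*-positive cells (0.83), and *Cd34* in *Pi16*-positive cells (0.61). *Cdh11* was still lower in *Dpp4*-positive cells (-0.82) and *Pi16* in *Cdh11*-positive cells (-0.61). The calls of *Cdh11* in *Fap*-positive cells (0.31) and of *Fap* in *Cdh11*-positive cells (0.32) did not hold in this matching. Both missed the limit of 0.5 alone (edgeR adjusted p = 0.0041 and 0.0095). Some other lost calls did so too. *Cd34* was at 0.45 in *Dpp4*-positive cells (edgeR adjusted p = 3.7e-05) and at -0.47 in *Cdh11*-positive cells (edgeR adjusted p = 2.3e-05). *Cdh11* in *Pi16*-positive cells missed both limits, at -0.13 (edgeR adjusted p = 0.42).

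Outside the 7 genes, those that rose most in *Fap*-positive cells were *Mmp13* (279 ± 254 against 62.6 ± 52.6 CPM, 2.08, SE 0.19), a collagenase also among the leading genes of the osteoblast-like cluster, *Col8a1* (1.02, SE 0.13) and *Omd* (1.01, SE 0.12). *Inmt* fell by 1.30 (SE 0.14), and *Krtdap* and *Apoe* by 1.08 and 0.94. In cells matched on UMIs *Inmt* was at -0.67 and *Apoe* at -0.37, and matched within clusters *Omd* was at 0.51, *Col8a1* at 0.49, *Inmt* at -0.62, *Krtdap* at -0.67 and *Apoe* at -0.46. With *Thy1*, *Wnt2* rose (1.87, SE 0.15), and with *Dpp4* so did *Wnt2* (2.44, SE 0.15), *Gap43* (2.28, SE 0.24) and *Stmn4* (2.20, SE 0.14). *Gap43* (2.38, SE 0.32), *Stmn4* (2.38, SE 0.16) and *Tek* (2.20, SE 0.16) led in *Pi16*-positive cells. *Ostn*, *Htra4* and *Bglap2* fell most in *Cd34*-positive cells, by 3.50, 3.07 and 2.99 on the log2 scale, and *Igfbp2* (3.46, SE 0.40), *Chil1* (3.13, SE 0.38) and *Scube2* (2.83, SE 0.33) rose most in *Cdh11*-positive cells. *Timp1*, an inhibitor of metalloproteinases, was among those that rose most with *Pdpn* (0.92, SE 0.09), and was under the limit at 0.43 in cells matched on UMIs. *Ostn* and *Bglap2* are also leading genes of the osteoblast-like cluster, and markers of other joint cells moved with these splits. With *Cd34*, 6 of 6 tested osteoblast and 5 of 6 chondrocyte markers were lower. With *Cdh11*, 7 of 7 tenocyte, 4 of 6 osteoblast and 4 of 6 chondrocyte markers were higher, and with *Fap* 4 of 6 osteoblast markers. The part of such cells in these differences was not tested.

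Detection of each pair in the same cell was measured as a log2 odds ratio per library in 10380 fibroblast-like cells thinned to 2000 UMIs, above 0 where a pair is found together more often than its shares give. It is a description, since cells are not replicates. Of the 21 pairs, 7 had the same sign in 12 of 12 libraries. The highest were *Dpp4* with *Pi16* (2.33 ± 0.87, SD over 12 libraries), *Cd34* with *Dpp4* (2.29 ± 0.98) and *Cd34* with *Pi16* (2.16 ± 0.49). *Thy1* followed with *Cd34* (1.14 ± 0.42) and *Pi16* (1.05 ± 0.45), and with *Dpp4* (1.41 ± 1.01) above 0 in 11 of 12. *Cd34* and *Cdh11* (-1.43 ± 0.66) and *Pi16* and *Cdh11* (-1.48 ± 0.80) were below 0 in 12 of 12 libraries. *Dpp4* and *Cdh11* (-1.27 ± 0.91) were found together in 9 thinned cells.

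*Fap* and *Thy1* were detected together about as often as their shares give, at 0.13 ± 0.38, above 0 in 8 of 12 libraries and in 6 of 8 clusters. In cells that were not thinned the value was 0.53 ± 0.43. *Fap* with *Cdh11* was at 0.78 ± 0.78, above 0 in 11 of 12, and *Fap* with *Cd34* at -0.38 ± 0.38. *Pdpn* stood within its spread of 0 with *Fap* (0.01 ± 0.38), *Thy1* (0.05 ± 0.40), *Cd34* (0.16 ± 0.32) and *Cdh11* (0.00 ± 0.66). The same held with *Dpp4* (0.25 ± 0.53) and *Pi16* (0.25 ± 0.30). With *Pi16* the value was above 0 in 11 of 12 libraries and 7 of 8 clusters. In cells that were not thinned, *Pdpn* was above 0 with *Fap* (0.73) and *Thy1* (0.59) in 12 of 12 libraries. Within single clusters, *Cd34* with *Pi16* was above 0 in 8 of 8 (0.44 to 1.70). *Cd34* with *Cdh11* was below 0 in 8 of 8 (-1.16 to -0.06), the value nearest 0 resting on 2 cells with both. *Dpp4* with *Pi16* had values above 0 in 8 of 8 (0.31 to 2.87), but some rest on few cells. In the *Nppc* and *Col8a1* cluster 0 cells held both, and the value of 1.53 comes from the 0.5 added to each count. The highest value, in the lining-like cluster, rests on 1 cell. *Pdpn* with *Cd34* was above 0 in 8 of 8 clusters (0.05 to 0.88), and *Cd34* with *Dpp4* in 6 of 8 (-0.56 to 1.90). The lowest value of *Cd34* with *Dpp4*, in the *Nppc* and *Col8a1* cluster, also had 0 cells with both.

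**Figure D4:**
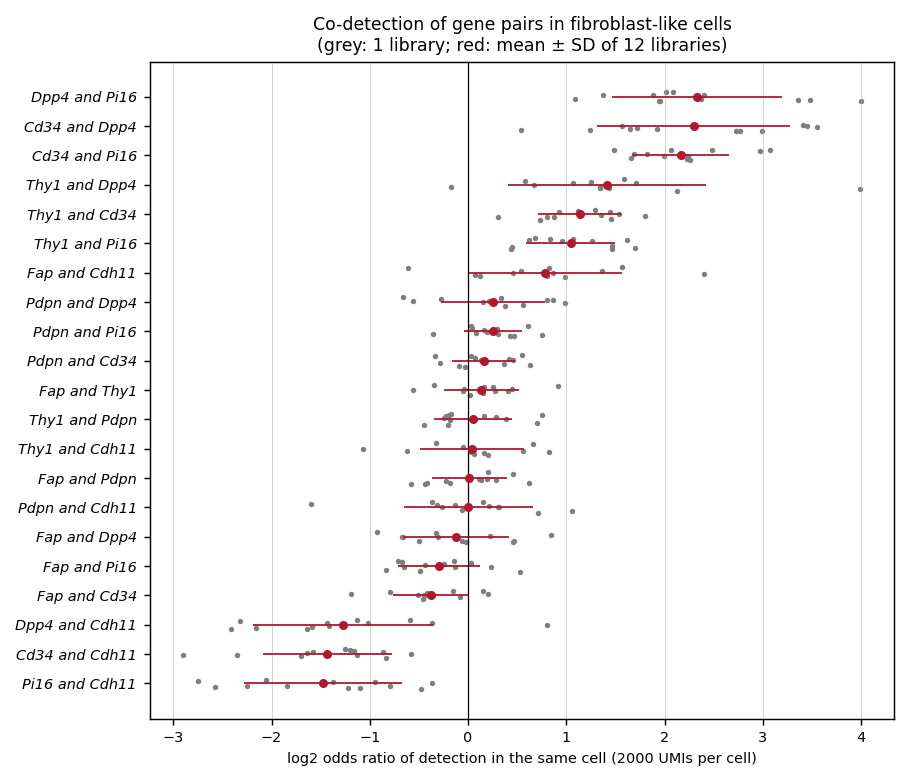
Log2 odds ratio of detection in the same fibroblast-like cell for each of the 21 pairs, in cells thinned to 2000 UMIs, where each point is a library and the bar gives the mean and SD. *Dpp4* and *Pi16* lie at 2.33, *Fap* and *Thy1* at 0.13, and *Pi16* and *Cdh11* at -1.48.

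Across 24 clusters of all cell types, the genes most like each of the 7 were found by Pearson's r of log2(CPM + 1) over 7575 genes, a description in which the clusters share libraries and differ in depth. *Fap* was most like *Islr* (0.92), *Lum* (0.91) and *Gpx8* (0.91), *Lum* being the gene of the proteoglycan lumican and a fibroblast marker used for naming. *Cdh11* was most like *Thbs2* (0.91), *Igsf10* (0.90) and *Cpxm1* (0.88). *Dpp4* was most like *Pi16* (0.87), *Ccl8* (0.84) and *Apbb1ip* (0.82), and *Pi16* like *Dpp4* (0.87), *Cyp2f2* (0.87) and *Ccl8* (0.87). *Cd34* was most like *Ace* (0.89), *Ly6a* (0.88) and *Ly6c1* (0.85), genes known from endothelium. *Thy1* had less similar neighbours, among them *Nmb* (0.77) and *Meis2* (0.75), as did *Pdpn*, with *Ptgfrn* (0.81), *Adamtsl1* (0.78) and *Notch2* (0.76). Between the chromosome 2 neighbours *Fap* and *Dpp4* r was 0.11, and between *Fap* and *Cdh11* 0.67.

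The levels in fibroblast-like cells differed between the runs of barcode suffixes for 7 of 7 genes, where 54.6% of 11584 genes did (F test in edgeR, adjusted p under 0.05). *Cd34* was at 669, 739 and 918 CPM in the libraries with suffixes 1 to 3, at 188, 192 and 225 in 4 to 6, at 414, 422 and 441 in 7 to 9 and at 644, 649 and 763 in 10 to 12. The libraries with suffixes 4 to 6 lay below all others, and those with 7 to 9 between them and the rest. *Dpp4* followed at 34.3, 45.3 and 51.9, then 7.56, 7.67 and 9.68, then 9.86, 15.8 and 16.1, then 28.1, 29.6 and 44.0 CPM in the same order of runs. *Pi16* was at 867, 919 and 1406, then 346, 430 and 493, then 613, 704 and 801, then 932, 952 and 1584 CPM. All 3 genes were lowest with suffixes 4 to 6 and next lowest with 7 to 9.

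*Cdh11* and *Pdpn* had their highest levels in that run. *Cdh11* was at 22.2, 25.2 and 52.7 CPM with suffixes 1 to 3, at 78.3, 84.1 and 89.9 with 4 to 6, at 57.3, 74.4 and 85.1 with 7 to 9 and at 15.2, 24.7 and 34.5 with 10 to 12. *Pdpn* was at 147, 148 and 170, then 285, 298 and 317, then 194, 197 and 199, then 129, 155 and 167 CPM, with no overlap between suffixes 4 to 6, 7 to 9 and the other libraries. *Fap* (F test in edgeR, adjusted p = 0.0018) was highest with suffixes 7 to 9, at 110, 125 and 182 CPM against 55.1 to 100.5 elsewhere. *Thy1* (F test in edgeR, adjusted p = 0.022) was at 97.2, 118 and 151 CPM with suffixes 10 to 12 and at 147 to 246 elsewhere.

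The makeup of the fibroblast-like cells differed with the runs too. The cluster with *Cxcl5* and *Saa3* took 44.4% to 50.5% of them in the libraries with suffixes 4 to 6 and at most 9.95% elsewhere, and the *Col14a1* and *Col5a3* cluster 30.2% to 53.7% with suffixes 7 to 9. The *Stmn4* and *Efhd1* cluster, rich in *Pi16* and *Dpp4*, took 2.63% to 3.71% with suffixes 4 to 6 and 23.5% to 26.1% with 10 to 12. Inside single clusters fewer of the genes differed between runs: 5 of 7 in the *Ifi205* and *C4b* cluster (5.01% of all genes), 4 of 5 in the lining-like cluster (20.3%), 3 of 7 with *Inmt* and *Serpina3c* (5.29%), 2 of 6 with *Ccl11* and *Hsd11b1* (4.3%), 1 of 6 with *Stmn4* and *Efhd1* (4.23%) and 1 of 6 with *Nppc* and *Col8a1* (2.12%). These fits held fewer cells and tested 3486 to 6792 genes, so fewer calls cannot be set directly beside those over all fibroblast-like cells. The *Cxcl5* and *Saa3* and the *Col14a1* and *Col5a3* clusters had too few cells in some libraries to be tested. The part of the makeup in the differences between runs was not tested. In the lining-like cluster, *Pdpn* was at 508 ± 128 CPM with suffixes 4 to 6 (n = 3) and at 122 ± 15.0, 191 ± 27.9 and 110 ± 9.68 with 1 to 3, 7 to 9 and 10 to 12. *Pi16* turned its order in the *Ifi205* and *C4b* cluster, where suffixes 4 to 6 were highest at 1138 ± 36.7 CPM against 440 ± 102 with 1 to 3.

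**Figure D5:**
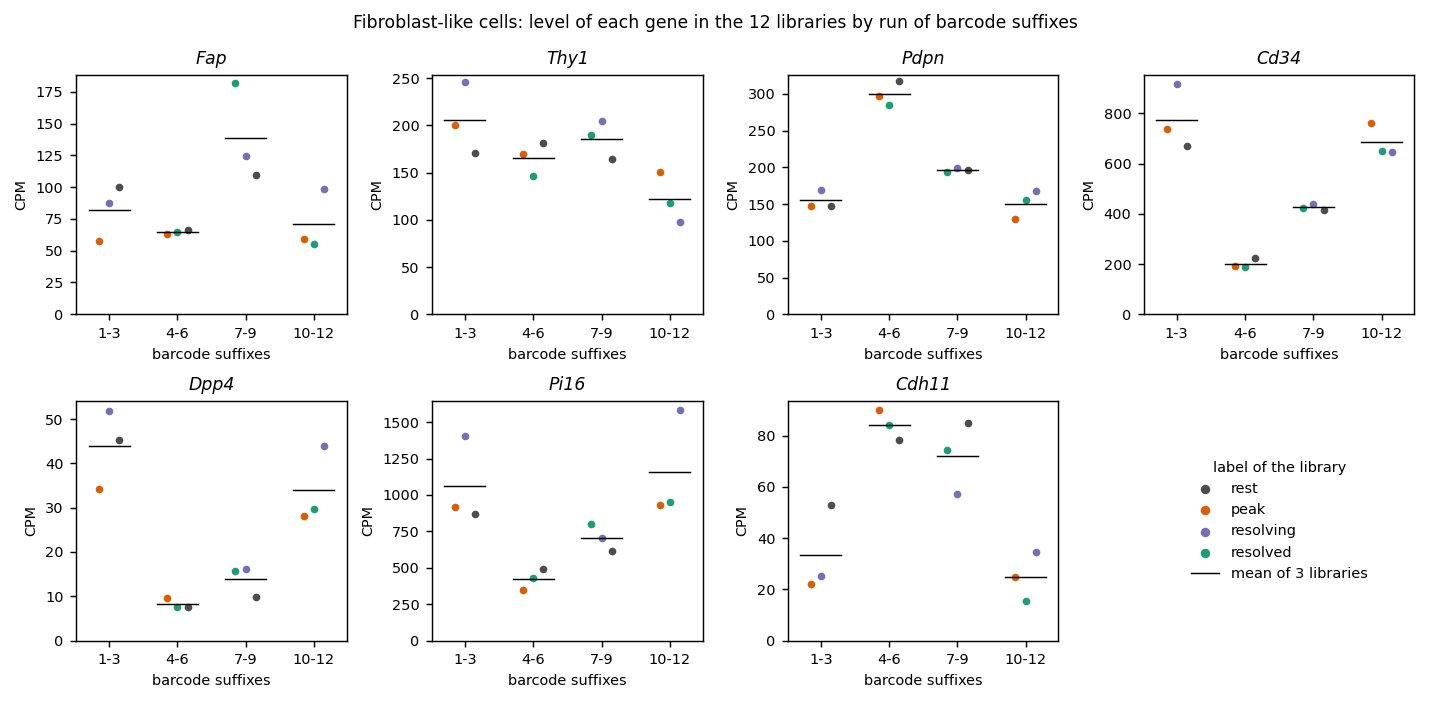
Level of each gene in fibroblast-like cells of the 12 libraries in CPM, by run of barcode suffixes, with the label of each library. *Cd34* is at 188 to 225 CPM with suffixes 4 to 6 and at 414 or more elsewhere, *Pdpn* is at 285 to 317 there and at most at 199 elsewhere, and the labels do not order the points.

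With each later label set against rest, 0 of 11584 genes were called in edgeR for peak, resolving and resolved alike, with 74, 114 and 88 genes at an unadjusted p under 0.05. In DESeq2, 0, 1 and 1 genes were called, *Chil1* in both cases, named here after its values were seen. The libraries of a label spread widely and fell into different runs: *Cd34* was at 225, 414 and 669 CPM at rest, 192, 739 and 763 at peak, 441, 644 and 918 in resolving and 188, 422 and 649 in resolved libraries. *Fap* was at 66.5, 100.5 and 110 CPM at rest and at 57.5, 59.0 and 63.1 at peak. The log2 difference was -0.58 (SE 0.37, edgeR adjusted p = 1.0). These labels did not overlap for *Fap*, but the share of all genes without such overlap is not given here. The rest library at 110 CPM lay in the run with the highest *Fap* levels, and none of the peak libraries did. *Pi16* was at 493, 613 and 867 CPM at rest and at 704, 1406 and 1584 in resolving libraries (0.90, SE 0.43, edgeR adjusted p = 1.0).

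With the run as a block, which removes the differences between runs, 0 genes were called again, and the *Fap* difference at peak was -0.28 (SE 0.22) and the *Pi16* difference in resolving libraries 0.42 (SE 0.18, edgeR adjusted p = 1.0). The shares of fibroblast-like cells with a UMI were compared in 21 tests of 7 genes at 3 labels (exact two-sided permutation test), in which 3 libraries against 3 cannot pass 0.05. The smallest p was that of *Pi16* at 44.6% ± 0.84 in resolved against 37.5% ± 4.40 in rest libraries (exact permutation p = 0.1, the smallest possible, adjusted p = 0.84). On counts simulated for the comparison of labels without the block, a change of 1 on the log2 scale between 2 labels was recovered for 9% of changed genes and a change of 2 for 68%, so that most changes of 1 or less would be missed by that fit.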

How the data were processed

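The members and all gene lists were chosen with earlier results of these data known. The authors sequenced 10x 3′ v2 libraries, aligned and counted them with CellRanger against mm10 and deposited 1 table of UMI counts per library, in whole numbers. The median per deposited cell was the same in all libraries, and whether depth was made equal before deposit is not given in the sources used here. Cells with 500 to 5000 genes and 500 to 20000 UMIs were kept, with upper UMI limits of 25000 to 40000 in peak and resolving libraries. They were clustered with scanpy 1.11.5 (2000 variable genes, 30 principal components, 20 neighbours, Leiden resolution 1). Clusters were named from marker lists, with limits set after the clusters were seen. The doublet caller marked 56 of 20060 cells (0.279%) and had not worked, so leaving out the 6% highest scores was an alternative.

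Counts were summed per library and cell type (at least 10 cells) and tested with edgeR 4.0.16 in R 4.3.3 (quasi-likelihood test, TMM scaling, filterByExpr, Benjamini-Hochberg adjustment over all genes). A gene was called at an adjusted p under 0.05 and an absolute log2 difference over 0.5, and in the test of runs at the adjusted p alone. Libraries were a block wherever groups came from the same library. DESeq2 1.42.0, other scalings, filters, cell limits and leaving out each library were alternatives. Named genes were the 7, the 10 with the largest change each way in the *Thy1* split among those called and changed alike in every library, the 3 most like each of the 7 over clusters of at least 50 cells (mean CPM of at least 10), and the called genes of each list, 2 to 4 each way. Of the genes most like *Thy1*, 1 is not reported here. Gene models without a symbol and haemoglobin, immunoglobulin, mitochondrial and ribosomal protein genes were left out. The genes named for cells positive for each of the 7 were chosen after their values were seen, from the 3 with the largest change each way. The fits were tested on simulated data. Nothing says that the libraries of a label came from separate cohorts, so p-values measure the spread between these libraries. Intervals and limits cover counting error only. A check of whether replicate numbers pair the libraries gave correlations of -0.65 to 0.80 over 18 pairs, 11 of them over 0.1, and the numbers were not taken as pairs.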

Additional observations from a re-analysis of the deposited data

How the results depend on the processing

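Each result was recomputed with other scalings, filters, cell limits and groups of cells. In the *Thy1* split of *Fap*-positive cells, 467 genes were called without a filter on low counts, 61 without the library block, 93 with positive cells defined from 2 UMIs, 34 in thinned cells and 27 matched within clusters, in place of 246. The cause of the change without the block was not tested, and thinning and matching left fewer genes or cells. For the 7 genes against each other, 10 tests were called matched within clusters in place of 20. Differences between runs were called for 1 gene in the *Stmn4* and *Efhd1* cluster, 3 with *Inmt* and *Serpina3c*, 4 in the lining-like cluster, 1 with *Nppc* and *Col8a1* and 2 with *Ccl11* and *Hsd11b1*. DESeq2 called 1 gene for resolving and 1 for resolved libraries. Without thinning, 11 pairs had the same sign in every library, in place of 7. *Dpp4* in tenocyte-like cells turned from -0.93 to 0.17 with at most 10% mitochondrial UMIs (adjusted p = 0.62), and the cause was not tested.

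Leaving out 1 library at a time gave 53 to 60 calls among types, 5 to 6 for lining-like and for sublining-like cells, 221 to 272 in the *Thy1* split, 20 to 20 among the 7 genes, 6 to 7 between runs, 7 to 9 pairs of 1 sign, and 0 to 0 for each label in levels. The shares gave 0 to 0 as well, which says nothing of stability, since that test cannot pass its threshold. With the replicate number as a block, 0 genes were called for peak, 0 for resolving and 0 for resolved libraries. No scaling turned a called direction among the types, although the median of all genes moved by up to 0.59 on the log2 scale, in Schwann-like cells. Of the values for single genes and pairs, 2241 were counted as unchanged, 41 lost and 14 gained a call, 5 moved and 1 reversed. A gene counted as unchanged with the same call and sign, or where neither fit called it, whatever its sign. A pair counted as unchanged where its mean moved by less than 1 SD.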
